A study of Mus musculus with 62 samples.

Results

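The mRNA of 7 subunit genes of the GABA-A receptor was followed across 5 brain regions and 2 ethanol paradigms: the alpha subunit genes Gabra2, Gabra3, Gabra4 and Gabra5, the beta subunit genes Gabrb1 and Gabrb2, and the delta subunit gene Gabrd. They were chosen by name, as 7 of the 56415 genes in the count table, and all 7 passed the filter on low counts in every comparison. The samples were cortex (CTX), the dorsal (dHPC) and ventral (vHPC) parts of the hippocampus and the dorsal (DS) and ventral (VS) parts of the striatum from 16 male C57BL/6J mice aged 8 to 10 weeks, sequenced as 62 poly(A) RNA libraries. Mice received 2 g/kg ethanol, as a 20% solution in saline, or an equal volume of saline by intraperitoneal injection, once in the acute paradigm or daily for 10 days in the chronic paradigm, and tissue was taken 4 h after the last injection. Each of the 20 groups (a region, a paradigm and a treatment) held 3 mice, except the dHPC acute ethanol and DS chronic ethanol groups with 4. No group carried a transgene or a targeted allele, and saline controls were injected as often as the ethanol mice they were compared with. C57BL/6J mice carry a known intronic deletion in Gabra2 that lowers its mRNA, so the Gabra2 level is that of this strain in every group.

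GABA-A receptors are chloride channels assembled from subunits of several classes, and the alpha, beta and gamma or delta subunits in a channel set its place on the neuron and its response to drugs. Channels with a gamma subunit gather at synapses and carry fast inhibition, while channels with the delta subunit, often paired with the alpha subunit encoded by Gabra4, and channels with the alpha subunit encoded by Gabra5 lie mostly outside synapses and carry tonic inhibition. At sufficient doses ethanol enhances the activity of GABA-A receptors, and altered subunit expression after repeated exposure has long been studied as a part of tolerance and withdrawal. The questions here were how the 7 mRNAs are spread over the 5 regions and whether a single or a repeated ethanol exposure changed them.

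The 7 genes lie in GRCm39 on chromosome 5 (Gabra2, Gabra4 and Gabrb1), chromosome X (Gabra3), chromosome 7 (Gabra5), chromosome 11 (Gabrb2) and chromosome 4 (Gabrd). The isoforms of Gabra4 (chr5:71727092-71815651, minus strand) and Gabrb1 (chr5:71815456-72306380, plus strand) share 196 bases on opposite strands at their 5′ ends. The kit used for CTX and dHPC does not keep the strand, so reads from this overlap cannot be told apart there. The promoter windows of the 3 members called in DS after acute ethanol are shown. Each window holds 300 bases, mostly upstream of a RefSeq start in GRCm38.p6, on the minus strand and written 5′ to 3′. For Gabra3, which has 2 such windows, the one that reaches farther upstream is shown. Capitals mark matches on either strand to the GC box GGGCGG or to TATAAA.
Gabra3, chrX:72656870-72657169: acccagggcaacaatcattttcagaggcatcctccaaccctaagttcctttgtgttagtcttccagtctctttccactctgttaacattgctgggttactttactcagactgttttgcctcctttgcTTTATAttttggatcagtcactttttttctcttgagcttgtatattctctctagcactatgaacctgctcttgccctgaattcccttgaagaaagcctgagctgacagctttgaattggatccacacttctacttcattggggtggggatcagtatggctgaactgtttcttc
Gabra5, chr7:57510010-57510309: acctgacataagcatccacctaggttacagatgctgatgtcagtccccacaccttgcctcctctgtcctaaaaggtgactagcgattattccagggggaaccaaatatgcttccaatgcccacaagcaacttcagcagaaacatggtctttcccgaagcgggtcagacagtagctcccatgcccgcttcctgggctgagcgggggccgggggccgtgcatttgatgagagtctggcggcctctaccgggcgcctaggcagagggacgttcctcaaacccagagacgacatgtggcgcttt
Gabra4, chr5:71658259-71658558: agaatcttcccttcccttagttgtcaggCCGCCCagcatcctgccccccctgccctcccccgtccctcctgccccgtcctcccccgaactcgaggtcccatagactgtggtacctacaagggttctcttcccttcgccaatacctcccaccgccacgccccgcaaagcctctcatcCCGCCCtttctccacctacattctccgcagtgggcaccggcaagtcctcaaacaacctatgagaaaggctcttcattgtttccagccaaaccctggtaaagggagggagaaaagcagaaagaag
The GC box occurred 2 times in the Gabra4 window and in 35.7% of 32851 mouse promoter windows of this length, and TATAAA occurred 1 time in the Gabra3 window and in 13.6% of all windows. The cyclic AMP response element TGACGTCA, found in 1.79% of all windows, and the EGR site GCGTGGGCG, found in 0.612%, had no match in the 3 windows. A match is a description of these letters and not evidence of a bound factor. The windows differed in base composition, with a GC content of 43.0% for Gabra3, 56.7% for Gabra5 and 58.7% for Gabra4 against a median of 52.7% over all windows.

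Library totals ran from 8149628 to 71164766 counts. CTX and dHPC formed one batch of library kit and sequencer and vHPC, DS and VS another, so tests between regions were run only within a batch, and values of the other batch are set beside them as a description. The DS chronic saline replicate 2 library stood apart: its counts on chromosome 6 stopped after position 22875501 (GRCm39) and chromosomes 7, 8, 9, X, Y and MT had none, as in a column that is not complete, so Gabra5 and Gabra3 read 0 in it, and it was left out of every fit unless stated. In CTX and DS, summed marker genes matched the label. The 9 pallial excitatory neuron markers lay at 1821 to 2327 CPM in CTX. The 10 striatal projection neuron markers lay at 4668 to 9672 CPM in the other DS libraries. Among saline samples, dentate granule neuron markers averaged 347 CPM in vHPC and 66.6 CPM in VS. Markers of hippocampal CA pyramidal neurons did not set vHPC apart, at 383 CPM against 374 CPM in VS. Some hippocampal libraries also held markers of neighbouring tissue. Striatal markers reached 2844 CPM in dHPC chronic saline replicate 5, 1232 CPM in vHPC acute ethanol replicate 4 and 1527 CPM in vHPC chronic ethanol replicate 5, against medians of 436 CPM in dHPC and 290 CPM in vHPC. The 6 thalamic markers reached 932 CPM in vHPC acute saline replicate 2 against a vHPC median of 150.2 CPM.

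Among saline samples, Gabra5 was higher and Gabrd lower in dHPC than in CTX and in vHPC than in DS or VS. Gabra4 was higher in DS and VS than in vHPC, and Gabra3 and Gabrb2 were higher in CTX than in dHPC. Levels are given as CPM, read counts scaled to an equal library size with TMM factors. Between regions of one batch, edgeR's quasi-likelihood test with Benjamini-Hochberg adjustment over all genes called 6 of the 7 members between CTX and dHPC, 4 between vHPC and DS, 6 between vHPC and VS and 0 between DS and VS, at a false discovery rate (FDR) below 0.1. The share of all genes tested that was called was 55.3%, 42.0%, 39.5% and 5.41% in the same order, so a call between these regions was common. For DS against VS, 2 members had an unadjusted p under 0.05. DESeq2 called 1, Gabra4, with 11.6% of the 16743 genes to which it gave an FDR.

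**Figure D1:**
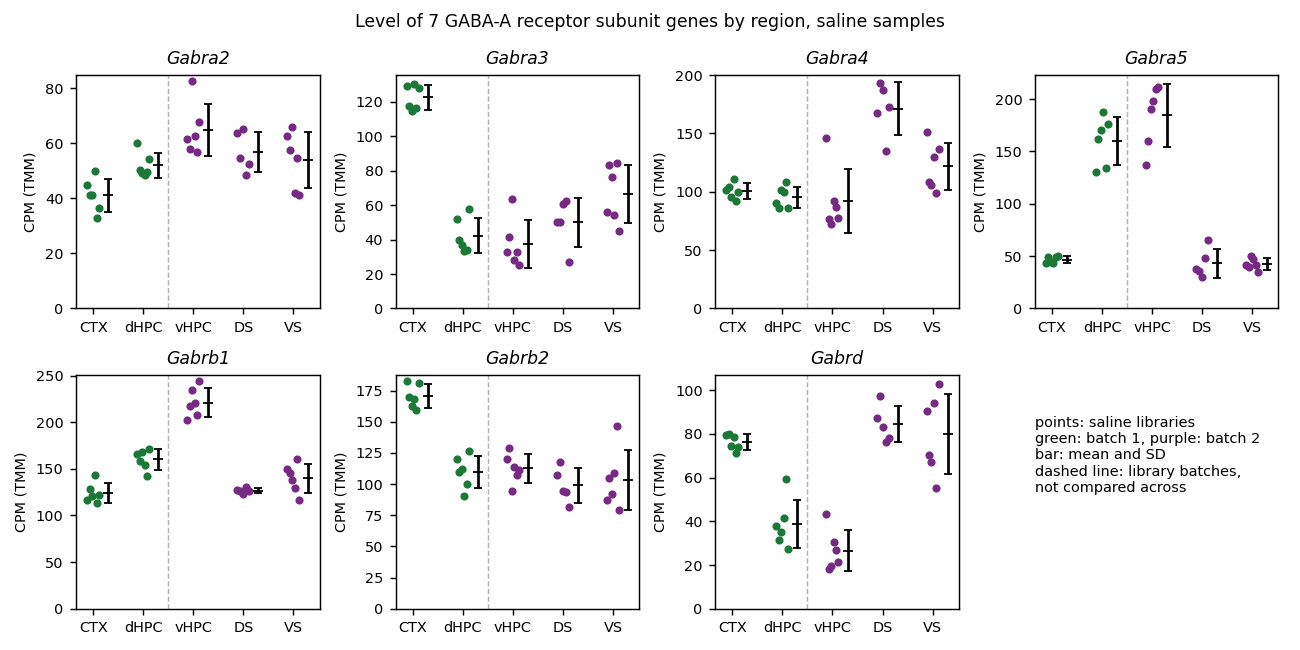
Level of each member (CPM, y axis from 0) in every saline library used, by region, with the mean and SD beside the points; n = 6 in each region except DS with 5. Gabra5 sat between 131 and 211 CPM in dHPC and vHPC and between 29.8 and 65.0 CPM in CTX, DS and VS, and within each batch these ranges did not overlap.

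Gabra5, which encodes the alpha subunit of the extrasynaptic channels of hippocampal pyramidal neurons, measured 46.8 ± 3.03 CPM in CTX (SD, n = 6) and 160.2 ± 23.2 CPM in dHPC (SD, n = 6). In the other batch it measured 184 ± 29.8 CPM in vHPC (SD, n = 6), 43.3 ± 13.9 CPM in DS (SD, n = 5) and 42.5 ± 5.46 CPM in VS (SD, n = 6). The log2 difference was -1.79 (SE 0.08, FDR = 5.69e-10) for CTX against dHPC, 2.05 (SE 0.14, FDR = 2.50e-09) for vHPC against DS and 2.07 (SE 0.13, FDR = 7.85e-10) for vHPC against VS. DS and VS differed by a log2 value of 0.02 (SE 0.14, FDR = 0.958). In each batch, every hippocampal saline library lay above every saline library of the other regions.

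Gabrd encodes the delta subunit, which gives extrasynaptic channels their high sensitivity to GABA and to neurosteroids. It measured 76.3 ± 3.56 CPM in CTX and 38.8 ± 11.2 CPM in dHPC, a log2 difference of 0.97 (SE 0.13, FDR = 2.81e-05). In vHPC it measured 26.6 ± 9.42 CPM, against 84.4 ± 8.36 CPM in DS (log2 difference -1.68, SE 0.20, FDR = 2.26e-06) and 80.0 ± 18.5 CPM in VS (log2 difference -1.60, SE 0.19, FDR = 2.60e-06). The DS and VS levels differed by less than their spread (log2 difference 0.08, SE 0.19, FDR = 0.874). The highest hippocampal Gabrd values belonged to the libraries with tissue markers from outside the hippocampus. Over all groups, Gabrd read 59.3 CPM in dHPC chronic saline replicate 5, where the other 12 dHPC libraries ran from 27.5 to 41.3 CPM, and it read 51.9 CPM in vHPC chronic ethanol replicate 5, 43.3 CPM in vHPC acute saline replicate 2 and 39.2 CPM in vHPC acute ethanol replicate 4, where the other 9 vHPC libraries ran from 18.3 to 34.0 CPM. Of these 4 libraries, the fits between regions held only the saline ones. Without dHPC chronic saline replicate 5, the log2 difference grew to 1.13 for CTX against dHPC (FDR = 4.65e-08). Without vHPC acute saline replicate 2, it grew to -1.91 for vHPC against DS (FDR = 5.72e-08).

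**Figure D2:**
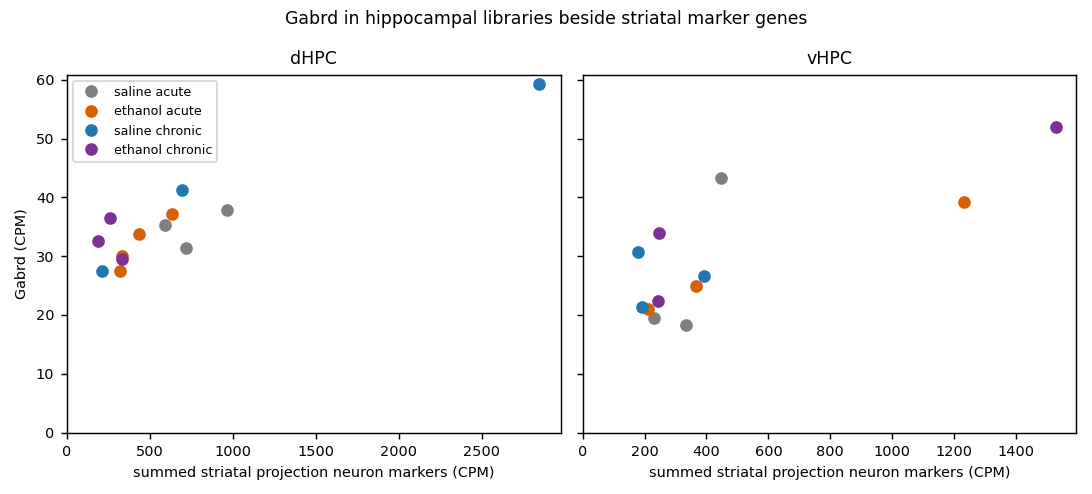
Gabrd level (CPM, y axis) against the sum of 10 striatal projection neuron markers (CPM, x axis) in each dHPC (left) and vHPC (right) library, coloured by paradigm and treatment. The library with 2844 CPM of striatal markers had the highest Gabrd of dHPC (59.3 CPM), and the library with 1527 CPM had the highest of vHPC (51.9 CPM).

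Gabra4 encodes the alpha subunit that most often pairs with delta in striatum and thalamus. It measured 171 ± 22.9 CPM in DS (SD, n = 5), 122 ± 20.5 CPM in VS and 92.0 ± 27.4 CPM in vHPC, with a log2 difference of -0.90 (SE 0.16, FDR = 0.000175) for vHPC against DS and -0.43 (SE 0.15, FDR = 0.0372) for vHPC against VS. For DS against VS the log2 difference was 0.48 (SE 0.16, FDR = 0.113), which did not pass. CTX and dHPC, at 101 ± 6.82 and 95.4 ± 9.15 CPM, differed by a log2 value of 0.07 (SE 0.06, FDR = 0.415). One vHPC library stood far above the rest: acute saline replicate 2, the library with 932 CPM of thalamic markers, read 146 CPM for Gabra4, where the other 5 vHPC saline libraries ran from 72.4 to 92.3 CPM. Without this library the vHPC and DS log2 difference was -1.09 (FDR = 1.17e-06), and the DS and VS log2 difference of 0.49 passed (FDR = 0.0219).

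Gabra3, an X-linked alpha subunit gene of cortical and monoaminergic neurons, measured 123 ± 7.25 CPM in CTX and 42.2 ± 10.1 CPM in dHPC, a log2 difference of 1.53 (SE 0.12, FDR = 1.20e-07). In the other batch it measured 66.6 ± 16.9 CPM in VS, 49.96 ± 14.2 CPM in DS and 37.3 ± 14.0 CPM in vHPC. vHPC was lower than VS by a log2 value of -0.88 (SE 0.20, FDR = 0.00206), while vHPC and DS (-0.44, SE 0.21, FDR = 0.119) and DS and VS (-0.45, SE 0.21, FDR = 0.269) did not pass. Gabra2, the alpha subunit gene most studied in human alcohol dependence, measured 41.1 ± 5.97 CPM in CTX and 52.0 ± 4.51 CPM in dHPC (log2 difference -0.35, SE 0.09, FDR = 0.00354). In the other batch it measured 53.9 ± 10.3 CPM in VS, 56.8 ± 7.21 CPM in DS and 64.8 ± 9.46 CPM in vHPC. Of the Gabra2 comparisons in that batch, vHPC against VS passed (log2 difference 0.26, SE 0.10, FDR = 0.0445).

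The 2 beta members, whose products form the GABA binding site together with an alpha subunit, were spread in different ways. Gabrb1 measured 124 ± 10.6 CPM in CTX and 160.0 ± 10.8 CPM in dHPC (log2 difference -0.38, SE 0.06, FDR = 0.000137), and 221 ± 15.8 CPM in vHPC against 127 ± 2.89 CPM in DS (log2 difference 0.78, SE 0.07, FDR = 1.26e-07) and 140 ± 15.6 CPM in VS (log2 difference 0.64, SE 0.07, FDR = 6.30e-07). Gabrb2 measured 171 ± 9.39 CPM in CTX and 109.8 ± 12.9 CPM in dHPC (log2 difference 0.63, SE 0.07, FDR = 3.27e-06). In vHPC, DS and VS it lay at 113 ± 11.7, 99.0 ± 13.8 and 103 ± 24.0 CPM, and none of the 3 differences passed. The saline libraries of these regions come from the same mice, and with the mouse as a block 2 more differences passed, Gabrb2 for vHPC against VS (log2 difference 0.24, edgeR FDR = 0.0540) and Gabra3 for vHPC against DS (-0.40, edgeR FDR = 0.0409).

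Levels of different genes were compared per kilobase of exon, with all alpha subunit genes of the table as the whole. By this measure, Gabra5 made up 44.0 ± 4.66% of alpha subunit mRNA in dHPC and 49.4 ± 6.77% in vHPC, and it made up 11.4 ± 0.893% in CTX, 16.3 ± 6.11% in DS and 16.3 ± 2.39% in VS (SD over saline samples). The shares are set side by side over both batches without a test. Gabra4 made up 31.0 ± 3.55% in DS and 23.3 ± 6.71% in VS, and its mean was 12.0% to 13.0% in CTX, dHPC and vHPC. Gabra2 stayed at or under a mean of 8.2% in every region. Of all subunit mRNA per kilobase, Gabrd made up 13.8 ± 0.715% in DS and 3.86 ± 1.49% in vHPC.

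The genes whose log2 CPM followed each member most closely were listed over the 25 libraries of CTX and dHPC and the 36 used libraries of vHPC, DS and VS. These libraries share regions and mice, so the correlations mostly carry the differences between regions and are given without a test. The closest gene to Gabra5 was St6galnac5 (Pearson r = 0.991) in the first batch and Grik4, a kainate receptor subunit gene (r = 0.977), in the second. Arhgap10 was among the 3 closest genes to Gabrd in both batches (r = 0.974 and 0.977), next to Pde7b (r = 0.975) in the second. The closest to Gabra4 in the second batch was Mbnl2 (r = 0.955). Gabra2 and Gabra3 had their closest genes in the second batch at r = 0.735 (Hsph1) and 0.851 (Slc7a3), and Gabrb1 at 0.945 (Camta1). In the first batch the closest were Pds5b for Gabra2 (r = 0.906), Osbpl1a for Gabra3 (r = 0.985), Zfp820 for Gabra4 (r = 0.750), Dok6 for Gabrb1 (r = 0.961) and Dennd5b for Gabrb2 (r = 0.972).

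Acute ethanol changed 5 of the 35 member and region pairs, 2 in CTX and 3 in DS. In CTX, Gabra5 rose and Gabrd fell, and in DS, Gabra4 rose while Gabra3 and Gabra5 fell. The called changes ran from a log2 value of 0.25 to 0.59 in size. In these comparisons edgeR called 1.99% of all genes in CTX and 5.15% in DS, against 2 and 3 of the 7 members. The members were chosen with earlier results of these data known, so these counts are a description. In dHPC, vHPC and VS no member was called, where 0.0420%, 0% and 0.0399% of all genes were. Over the 5 regions, 8 of the 35 pairs had an unadjusted p under 0.05. All 5 calls were lost when the 4 groups of a region were fitted together.

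**Figure D3:**
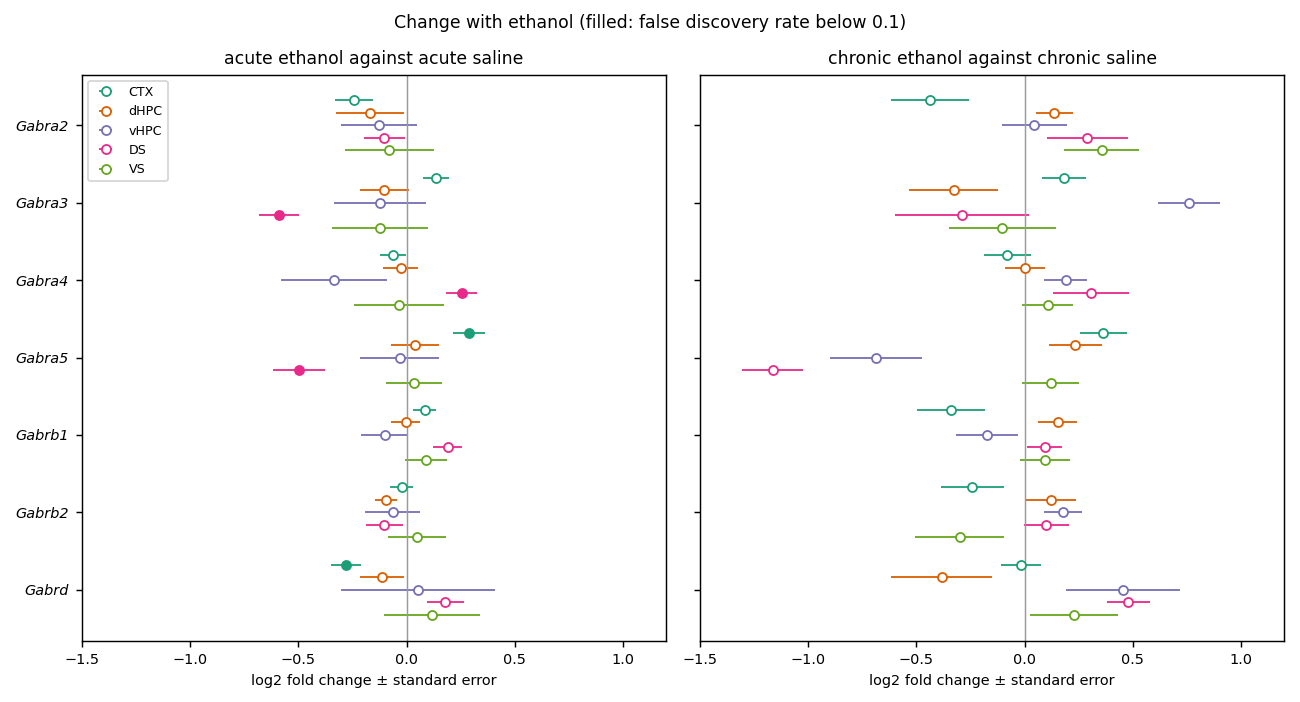
Log2 fold change of each member with ethanol (x axis, ± standard error) in the acute (left) and chronic (right) paradigm, one point a region; filled points have an FDR below 0.1 with edgeR. Gabra5 lies at -0.50 in DS and 0.29 in CTX after acute ethanol and at -1.16 in DS and 0.36 in CTX after chronic ethanol.

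In CTX, Gabra5 read 43.6, 49.4 and 44.6 CPM in acute saline replicates 2, 4 and 6 and 57.0, 50.6 and 60.0 CPM in acute ethanol replicates 2, 4 and 5. All ethanol libraries lay above all saline libraries and the log2 fold change was 0.29 (SE 0.07, edgeR FDR = 0.0926). Gabrd read 79.5, 79.8 and 74.5 CPM in acute saline and 67.2, 57.1 and 67.8 CPM in acute ethanol, again without overlap, with a log2 fold change of -0.28 (SE 0.07, edgeR FDR = 0.0834). Groups without overlap made up 17.4% of all genes in this comparison. The other members had log2 fold changes of -0.24 (Gabra2), 0.14 (Gabra3), -0.06 (Gabra4), 0.08 (Gabrb1) and -0.02 (Gabrb2) and did not pass. Both calls were close to the threshold: the Gabra5 call was lost without any one of the 6 libraries (FDR = 0.1253 to 0.292), and the Gabrd call was lost without 5 of the 6 (FDR up to 0.297) and kept without acute ethanol replicate 2 (FDR = 0.0675). DESeq2, which called 5.21% of the 18370 genes to which it gave an FDR, called both (FDR = 0.0184 for Gabra5 and 0.0127 for Gabrd). Pallial markers lay at 1920 to 2088 CPM in acute saline and 1922 to 2017 CPM in acute ethanol, while oligodendrocyte markers lay at 1915 to 2167 CPM in saline and 2235 to 2964 CPM in ethanol. GABAergic interneuron markers lay at 931 to 994 CPM in saline and 828 to 914 CPM in ethanol, endothelial markers at 163 to 172 CPM and 145.0 to 153 CPM, and microglial markers at 179.5 to 190.0 CPM and 169.7 to 172 CPM. Striatal projection neuron markers (327 to 395 and 285 to 311 CPM) and dentate granule neuron markers (92.5 to 103 and 82.2 to 85.8 CPM) were also lower with ethanol. These 6 lists separated the groups without overlap, and the other 5 lists overlapped. The part of these marker differences in the Gabra5 and Gabrd results was not tested.

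In DS, Gabra3 read 50.4, 49.9 and 60.4 CPM in acute saline replicates 2, 4 and 6 and 34.5, 38.9 and 36.7 CPM in acute ethanol replicates 3, 4 and 5. The groups were well apart, and the log2 fold change was -0.59 (SE 0.09, edgeR FDR = 0.00347). It was the only one of the 5 calls that was kept without each library in turn (FDR = 0.00666 to 0.0250). Gabra5 read 37.3, 35.9 and 29.8 CPM in saline and 28.3, 21.8 and 25.1 CPM in ethanol, a log2 fold change of -0.50 (SE 0.12, edgeR FDR = 0.0431). Gabra4 moved the other way, from 168, 193 and 187 CPM to 237, 217 and 220 CPM, a log2 fold change of 0.25 (SE 0.07, edgeR FDR = 0.0716). Neither gene's groups overlapped. The Gabra5 call was lost without acute saline replicate 2 or 4 or acute ethanol replicate 4 or 5 (FDR up to 0.154), and the Gabra4 call without any library but acute saline replicate 4 (FDR up to 0.232). Gabrb1 lay at 123 to 128 CPM in saline and 138 to 153 CPM in ethanol, without overlap, and did not pass (log2 fold change 0.19, FDR = 0.165), and Gabrd (0.18, FDR = 0.336), Gabra2 (-0.10) and Gabrb2 (-0.10) overlapped and did not pass. Groups without overlap made up 22.4% of all genes in this comparison.

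The DS groups also differed in summed marker genes of neurons. The 9 pallial excitatory neuron markers summed to 423 to 520.1 CPM in acute saline and to 38.0 to 122 CPM in acute ethanol, with at most 1 marker at 0 in any of these libraries. The 10 striatal projection neuron markers summed to 6046 to 7323 CPM in acute saline and to 8293 to 8529 CPM in acute ethanol, with none at 0. The 8 GABAergic interneuron markers summed to 284 to 360.0 CPM in acute saline and to 264 to 271 CPM in acute ethanol. These 3 lists separated the groups without overlap. Among saline samples, Gabra4 and Gabrd were higher in DS than in vHPC, Gabra5 and Gabrb1 were lower, and the other members did not pass. After acute ethanol in DS, Gabrd (mean 89.2 CPM in saline and 103.9 CPM in ethanol) and Gabrb1 (125.5 and 147.3 CPM) were higher but not called. In bulk tissue, fewer cells of a type and less RNA per cell cannot be told apart, and the part of the pallial, striatal and interneuron markers in the changes of Gabra3, Gabra4 and Gabra5 was not tested. Acute ethanol replicate 5 was also sequenced to a depth of 46564992 counts, against a median of 13091491 in DS.

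**Figure D4:**
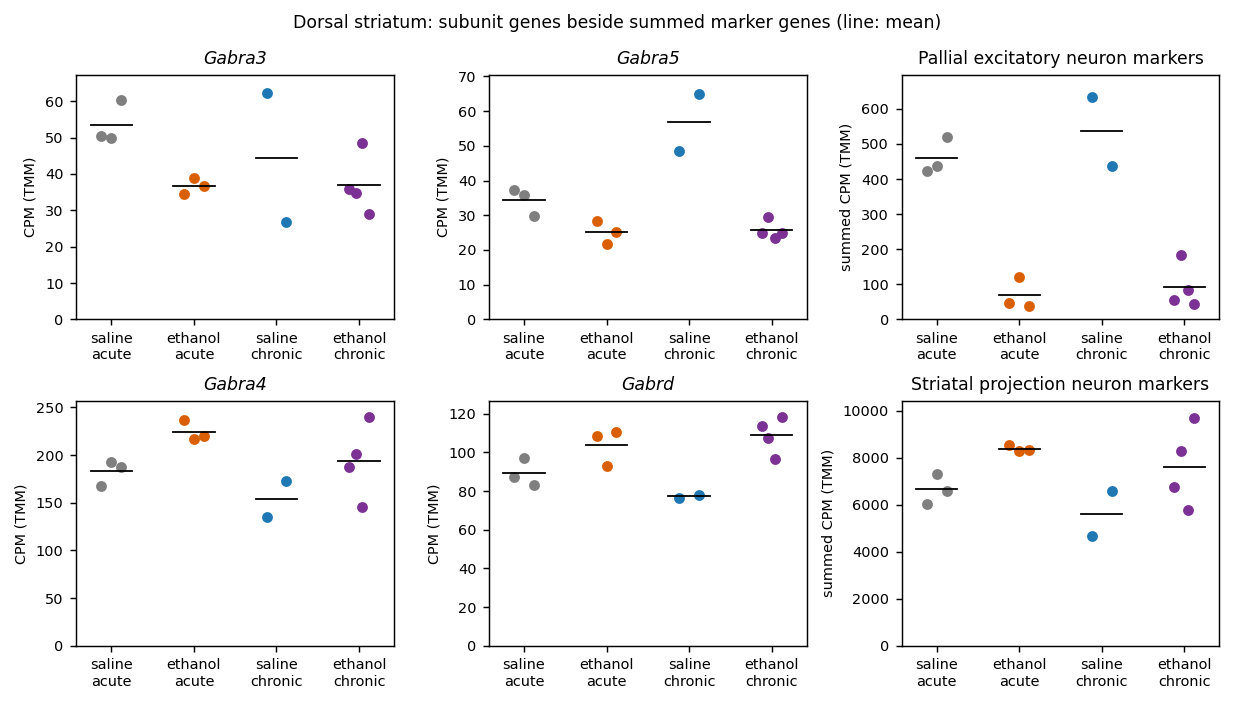
Gabra3, Gabra5, Gabra4 and Gabrd (CPM) and the summed pallial excitatory and striatal projection neuron markers (CPM) in each DS library used, by treatment and paradigm; lines are means and y axes start at 0. Pallial markers lay at 423 CPM or more in every saline library and at 183 CPM or less in every ethanol library.

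In per-kilobase shares, Gabra4 made up 32.0 ± 1.90% of alpha subunit mRNA in DS after acute saline and 42.9 ± 0.228% after acute ethanol (SD, n = 3 each). Gabra3 made up 14.5 ± 1.38% and 10.9 ± 1.12%, and Gabra5 made up 12.3 ± 1.65% and 9.78 ± 0.858%. These shares come from the same counts as the fold changes and are given as a description.

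In the other 3 regions no member passed the test after acute ethanol. In VS the log2 fold changes ran from -0.12 (Gabra3) to 0.12 (Gabrd), with FDR of 0.908 or more, and lay at -0.08 for Gabra2, -0.03 for Gabra4, 0.03 for Gabra5, 0.09 for Gabrb1 and 0.05 for Gabrb2. In VS, pallial markers again lay higher in acute saline (348 to 828 CPM) than in acute ethanol (53.8 to 155 CPM). Libraries of the same VS group could differ widely in striatal markers and in 3 members. In acute ethanol, replicate 2 had 6070 CPM of striatal markers with 159 CPM of Gabra4, 106 CPM of Gabrd and 46.0 CPM of Gabra3, while replicate 5 had 2790 CPM of striatal markers with 90.0, 53.7 and 89.2 CPM. In dHPC the log2 fold changes ran from -0.17 (Gabra2) to 0.04 (Gabra5), with -0.10 for Gabra3, -0.03 for Gabra4, -0.0041 for Gabrb1, -0.09 for Gabrb2 and -0.11 for Gabrd. In vHPC they ran from -0.33 (Gabra4) to 0.05 (Gabrd), with -0.13 for Gabra2, -0.12 for Gabra3, -0.03 for Gabra5, -0.10 for Gabrb1 and -0.06 for Gabrb2. The groups of every member overlapped in these 3 regions. The vHPC value of Gabra4 rested on acute saline replicate 2, at 146 CPM, and the 3 ethanol libraries (76.9, 81.0 and 79.2 CPM) lay above the other 2 saline libraries (76.7 and 72.4 CPM).

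After chronic ethanol no member was called in any region: 0 of 35 pairs passed with edgeR, 6 had an unadjusted p under 0.05, and DESeq2 called 4. edgeR called 0% of all genes in CTX, dHPC, DS and VS and 0.0555% in vHPC. The chronic DS comparison set 2 saline against 4 ethanol mice. The 4 pairs that DESeq2 called were Gabra5 and Gabrd in DS and Gabra3 and Gabra5 in vHPC. Of the genes to which it gave an FDR, DESeq2 called 0.878% of 17534 in DS and 1.17% of 18275 in vHPC.

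Gabra5 in DS had the smallest unadjusted p of the chronic pairs. It read 48.6 and 65.0 CPM in chronic saline replicates 3 and 6 and 24.9, 29.5, 23.6 and 24.9 CPM in chronic ethanol replicates 1, 4, 5 and 6, a log2 fold change of -1.16 (SE 0.14, edgeR FDR = 0.170, DESeq2 FDR = 6.87e-07). The 2 saline libraries lay above all ethanol libraries and also above the 3 acute saline libraries (29.8 to 37.3 CPM). Chronic against acute saline in DS gave the only call among the 35 such pairs, Gabra5 with a log2 fold change of 0.73 (SE 0.15, edgeR FDR = 0.0495), where 3.17% of all genes were called, against 0.00772% in CTX, 0.00382% in dHPC and 0% in vHPC and VS. This call was lost without chronic saline replicate 6 or any of the 3 acute saline libraries and with all 4 groups in 1 fit. Marker genes differed between these saline groups too: choroid plexus markers lay at 1876 and 7065 CPM in chronic saline and 21.5 to 295 CPM in acute saline, and dentate granule neuron markers at 66.1 and 71.8 CPM and 45.2 to 53.0 CPM. Their part in the Gabra5 difference was not tested. The chronic ethanol libraries lay close to the acute ethanol libraries (21.8 to 28.3 CPM). Without chronic ethanol replicate 4 the chronic Gabra5 difference passed with edgeR (FDR = 0.0895), and without the other libraries in turn it did not.

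Gabrd in DS read 76.3 and 78.2 CPM in chronic saline and 114, 108, 96.8 and 119 CPM in chronic ethanol, without overlap (log2 fold change 0.48, SE 0.10, edgeR FDR = 0.346, DESeq2 FDR = 0.0261). Here chronic saline replicate 2 has counts, and it read 97.2 CPM, above the lowest ethanol library. Gabra4 read 135 and 173 CPM in saline and 187, 201, 145 and 239 CPM in ethanol, with overlap (0.31, SE 0.18, FDR = 0.731), and Gabra3 read 62.4 and 26.7 CPM in saline and 28.9 to 48.5 CPM in ethanol (-0.29, SE 0.31, FDR = 0.867). Gabrb1 read 131 and 126 CPM in saline and 137, 143, 133 and 143 CPM in ethanol, without overlap (0.09, SE 0.08, FDR = 0.818). Gabra2 (0.29) and Gabrb2 (0.10) overlapped and did not pass. As in the acute groups, pallial markers were higher in chronic saline (635 and 437 CPM) than in chronic ethanol (43.0 to 183 CPM), and striatal markers lay at 4668 and 6563 CPM against 5756 to 9672 CPM. Oligodendrocyte markers (9079.8 and 9482 CPM in saline, 6353 to 8687 CPM in ethanol) and endothelial markers (139 and 166 CPM, 169.8 to 188 CPM) did not overlap between these groups either. Their part in the Gabra5 and Gabrd values was not tested. Choroid plexus markers varied from 22.0 to 7065 CPM within the chronic DS libraries.

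In vHPC, Gabra3 read 28.4, 32.6 and 25.4 CPM in chronic saline and 47.7, 57.6 and 42.1 CPM in chronic ethanol, without overlap (log2 fold change 0.76, SE 0.14, edgeR FDR = 0.182, DESeq2 FDR = 0.00271). The acute saline libraries of vHPC, at 32.5, 41.2 and 63.7 CPM, spanned a range that held all 3 chronic ethanol libraries. Gabra5 read 198, 209.7 and 211 CPM in saline and 185, 87.5 and 117 CPM in ethanol, again without overlap (log2 fold change -0.68, SE 0.21, edgeR FDR = 0.406, DESeq2 FDR = 0.0868). The lowest Gabra5 value belonged to chronic ethanol replicate 5, which had 1527 CPM of striatal markers and the highest Gabrd. Marker genes also separated the chronic vHPC groups: pallial markers lay at 2099 to 2520.1 CPM in saline and 1439 to 2026 CPM in ethanol, choroid plexus markers at 26.1 to 204 CPM and 885 to 3122 CPM, and endothelial markers at 133 to 149 CPM and 118.5 to 120.3 CPM. Their part in the Gabra3 and Gabra5 values was not tested. Without chronic ethanol replicate 5, the log2 fold change was 0.63 for Gabra3 (edgeR FDR = 0.419) and -0.47 for Gabra5 (edgeR FDR = 0.748). For Gabrd it was 0.09 in place of 0.45. Gabra4 read 92.3, 86.7 and 77.7 CPM in chronic saline and 94.2, 100.4 and 101 CPM in chronic ethanol (log2 fold change 0.19, SE 0.10, edgeR FDR = 0.568). Gabrb2 read 114, 108 and 111 CPM in saline and 124, 123 and 133 CPM in ethanol (0.18, SE 0.09, edgeR FDR = 0.552). Neither gene's groups overlapped and neither passed, while Gabra2 (0.04) and Gabrb1 (-0.17) overlapped. Groups without overlap made up 14.7% of all genes in vHPC and 17.3% in DS in the chronic paradigm.

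In CTX after chronic ethanol, Gabra5 read 63.9, 67.9 and 52.4 CPM against 43.9, 49.1 and 49.96 CPM in saline, in the same direction as after acute ethanol in mice of separate groups (log2 fold change 0.36, SE 0.11, edgeR FDR = 0.443). These groups did not overlap, as for 18.1% of all genes. Astrocyte markers did not overlap either, at 2597 to 3134 CPM in saline and 1894 to 2364 CPM in ethanol, and their part in the Gabra5 value was not tested. Gabra3 read 130.4, 116 and 128 CPM in saline and 133, 162 and 131 CPM in ethanol, also without overlap (log2 fold change 0.18, SE 0.10, edgeR FDR = 0.543). Gabrd read 70.5, 69.3 and 82.1 CPM in ethanol and 78.7, 71.1 and 74.0 CPM in saline, with overlap (log2 fold change -0.02, SE 0.09, FDR = 0.964). Chronic ethanol replicate 6 was the lowest of the 12 CTX libraries for Gabra2 (23.0 CPM), Gabra4 (85.0 CPM), Gabrb1 (75.5 CPM) and Gabrb2 (111 CPM). The log2 fold changes of these 4 members in CTX were -0.44, -0.08, -0.34 and -0.24, and none passed. In dHPC they ran over all members from -0.38 for Gabrd to 0.24 for Gabra5, with 0.14 for Gabra2, -0.33 for Gabra3, 0.0025 for Gabra4, 0.15 for Gabrb1 and 0.12 for Gabrb2. The dHPC value of Gabrd rested on chronic saline replicate 5, at 59.3 CPM, and was -0.08 without that library. In VS they ran from -0.30 (Gabrb2) to 0.36 (Gabra2), with FDR of 0.537 or more, and lay at -0.10 for Gabra3, 0.11 for Gabra4, 0.12 for Gabra5, 0.09 for Gabrb1 and 0.23 for Gabrd.

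Whether the effect of ethanol differed between the paradigms was tested as the interaction of paradigm and treatment in each region. No member passed in any of the 5 regions, where edgeR called 0% of all genes in each. Of the 35 tests, 5 had an unadjusted p under 0.05. DESeq2 called 1, in vHPC, with 4.62% of the 9023 genes to which it gave an FDR. For the same interaction edgeR tested 20618 genes. The value with the lowest FDR was Gabra3 in vHPC, at a log2 value of 0.89 (SE 0.28, edgeR FDR = 0.312, DESeq2 FDR = 0.0829). For Gabra5 in DS the interaction was -0.66 (SE 0.20, FDR = 0.973), and for Gabrd in CTX it was 0.25 (SE 0.12, FDR = 0.605). Chronic and acute saline libraries gave the measure of the paradigm without ethanol: outside DS no member was called between them, with log2 values from -0.68 (Gabra3 in vHPC) to 0.33 (Gabra5 in vHPC).

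The other genes of GABA signalling were taken from 6 lists of 53 genes in all. Over the 10 ethanol comparisons edgeR made 9 calls among them, 8 in DS and 1 in CTX after acute ethanol, and 0 after chronic ethanol. Over all genes, the acute comparisons called 5.15% in DS and 1.99% in CTX. In DS, 1 of the 9 tested other GABA-A subunit genes rose. Gabrq, which encodes the theta subunit, read 0.294 to 0.602 CPM in saline and 0.673 to 5.70 CPM in ethanol (log2 fold change 2.78, SE 0.66, FDR = 0.0379), a gene at the low end of detection here. In VS saline samples its mean was 5.38 CPM, with a median of 3.53 CPM and a range from 0.484 to 17.6 CPM.

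Of the 8 tested genes for GABA synthesis, loading, uptake and breakdown, 3 rose in DS after acute ethanol and 0 fell, with a list median log2 fold change of 0.21 against 0.0038 over all genes, of which 5.15% were called. They were Gad2, which makes GABA (log2 fold change 0.34, FDR = 0.00464), Abat, which breaks it down (0.35, FDR = 0.00449), and Aldh5a1, the next enzyme of that path (0.29, FDR = 0.0308). Of the 6 GABA-B receptor genes, Gabbr2, a subunit of the metabotropic GABA receptor, fell from 129.7 to 146 CPM to 85.0 to 92.2 CPM (log2 fold change -0.71, SE 0.07, FDR = 0.000149), while its auxiliary subunit genes Kctd12 (0.39, FDR = 0.0112) and Kctd8 (0.68, FDR = 0.0602) rose. None of the 19 scaffold and trafficking genes, the 3 chloride gradient genes or the 4 neurosteroid synthesis genes was called in DS. The call in CTX was Nlgn2, the adhesion protein of inhibitory synapses, which fell with a log2 fold change of -0.23 (SE 0.05, FDR = 0.0700). The list medians in CTX after acute ethanol ran from -0.17 for neurosteroid synthesis to 0.10 for the other GABA-A subunits, against 0.0024 over all genes. The pallial, striatal and interneuron marker differences between the DS groups given above hold beside these genes as well, and their part was not tested.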

How the data were processed

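RNA from 62 tissue samples was sequenced as paired-end poly(A) libraries, with a non-directional kit for cortex and dHPC and a directional kit for vHPC, DS and VS. The authors used Cutadapt 5.0 for trimming and STAR 2.7.10a for alignment to GRCm39 and counted read pairs with featureCounts 2.0.6, all as reverse-stranded and with multi-mapping and overlapping pairs counted for each feature. The deposited values are raw counts per gene, not normalized or filtered, and counts per isoform, which share exons and were used here only for gene spans. Counting the non-directional libraries as stranded uses only the pairs that read as the gene's strand. Library totals of 8149628 to 71164766 counts set the precision, and without molecular identifiers the reads cannot be taken as independent molecules.

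Groups came from the labels, each mouse being a replicate. In each region, groups were compared with edgeR 4.0.16 (limma 3.58.1, R 4.3.3): TMM, quasi-likelihood F test, prior count 0.125, a filter of 5 or more counts in 2 or more samples of any group, Benjamini-Hochberg over all genes tested, called at FDR below 0.1. Regions were compared on saline samples of a batch with paradigm as covariate. Standard errors are the log2 fold change divided by the root of F. CPM values used TMM factors over all libraries. DS chronic saline replicate 2 was left out. Alternatives were DESeq2 1.42.0, its size factors in edgeR, other filters, 1 fit a region, replicate or mouse blocks, leaving out each library and, chosen after seeing the data, leaving out 4 hippocampal libraries whose striatal or thalamic markers were over 3 times the region's median. The tests were also tried on simulated counts, where 200 genes per comparison carried a log2 change of 1.5. Of the genes called there, 13.8% were false for DS acute ethanol, above the FDR threshold of 0.1. In the other comparisons tried, 8.68% to 10.0% were false. Each simulated gene had the same spread between libraries, below edgeR's common estimate for the real counts. These false shares therefore need not hold for the data. Changes as small as those called for members after ethanol were not simulated, so this trial cannot tell how reliably they are found.

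The members and lists were chosen with earlier results of these data known. For ethanol, every member's fold change is given in each region; between regions, saline groups and in the interaction, members are given by the calls and ranges. Of the other lists, each gene with FDR below 0.1 in an ethanol comparison was named, and for likeness the 3 genes with the highest correlation to a member in a batch were taken, among genes with a mean of at least 10 counts, of which the closest are named, with Arhgap10 and Pde7b added. Some genes that these rules select are not reported here. Within a region the same replicate number marks different mice in saline and ethanol groups. Their deviations from the group means correlated weakly or not at all, at -0.144 to 0.0551 where groups share at least 2 numbers. Where groups share 1 number, the correlation ran from -0.0845 to 0.212. Across regions a number marks the same mouse.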

Additional observations from a re-analysis of the deposited data

Results flagged for a closer look

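Gabra3 in dHPC acute ethanol had 1 library apart from its group: replicate 2 read 33.8 CPM, below the other 3 libraries at 40.8 to 42.0 CPM. Gabra4 in the vHPC saline samples had 1 library apart: acute saline replicate 2 read 146 CPM, above the other 5 at 72.4 to 92.3 CPM, and it also held 932 CPM of thalamic markers. These were 2 of 49 sets of libraries examined, and chance gives about 1 in 20.

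The log2 fold change of Gabra5 had opposite signs between regions under the same treatment. After acute ethanol its log2 fold change was 0.29 in CTX and -0.50 in DS, with all ethanol libraries above the saline libraries in CTX and below them in DS. After chronic ethanol it was 0.36 in CTX, -0.68 in vHPC and -1.16 in DS, again without overlap between the groups in each region. None of these chronic values passed with edgeR. Groups without overlap made up 17.4% of all genes in CTX and 22.4% in DS after acute ethanol. After chronic ethanol they made up 18.1% in CTX, 14.7% in vHPC and 17.3% in DS. CTX belongs to another batch of libraries than vHPC and DS, and the difference between the regions was not tested.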

How the results depend on the processing

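No member named as called changed direction under any alternative run. Of 35 pairs after acute ethanol, 5 were called, 0 with all 4 groups of a region in 1 fit and 3 to 5 when 1 library was left out. After chronic ethanol the count was 0, with 4 by DESeq2, 4 without a low-count filter, 2 with all 4 groups in 1 fit and 0 to 2 with 1 library left out, the 2 being Gabra3 and Gabra5 in vHPC without chronic ethanol replicate 4. The interaction gave 0, with 1 by DESeq2 and 4 without the filter, and 0 in every leave-one-out fit. Chronic against acute saline gave 1, with 2 by DESeq2, 2 without the filter, 0 with DS chronic saline replicate 2, 0 with all 4 groups in 1 fit and 0 to 2 with 1 library left out. DS against VS gave 0, with 1 by DESeq2, 2 without the filter, 1 with at least 10 counts in every sample, 3 with ethanol samples added, 1 without the 4 hippocampal libraries and 0 to 2 with 1 library left out. Of those 4 libraries, the DS and VS fit held only vHPC acute saline replicate 2. CTX against dHPC gave 6 throughout, vHPC against DS 4 to 5 and vHPC against VS 5 to 7. The cause of these differences was not tested.

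The replicate number was used as a block only where groups share at least 2 numbers. These were CTX and dHPC after acute ethanol and CTX after chronic ethanol. With this block the Gabra5 call in CTX after acute ethanol was lost and the Gabrd call was kept. No other member was called in these fits, and the acute calls in DS were not refitted with it. Replicate numbers do not pair the mice. With the mouse as a block, the region counts were 6 for CTX and dHPC, 5 for vHPC and DS, 7 for vHPC and VS and 0 for DS and VS. The depth of vHPC, DS and VS, with medians of 1.45302e+07, 13091491 and 14524117 counts, was lower than in CTX and dHPC.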
